A study of Mus musculus with 6 samples.

Results

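The 10 genes described here belong to type 2 immunity and were followed in type II alveolar epithelial cells of the mouse lung, the cells that make and secrete surfactant. They were Retnla, Retnlg, Fcer2a, Il33, Il1rl1, Il4ra, Il13ra1, Chil1, Chil3 and Arg1. A gene was read through the probe set that carried its symbol alone, and 9 of the 10 had one, among 19938 genes read in this way. Il1rl1, the receptor for IL-33, had none, so its expression was not analysed here. Each of the 9 genes had a single probe set, so no second probe set of the same gene was there to compare. The 10 genes were chosen by function with earlier results of these arrays known, the same log2 differences between the groups that are given below. The folds and adjusted p values below therefore describe where each gene stood in a fit over all 19938 genes, and a count of called members is no test of the list.

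The 3 arrays labelled knockout held RNA from mice that carried SP-C-rtTA and (tetO)7CMV-Cre together with Gpr116flx/flx, and the 3 control arrays RNA from SP-C-rtTA/(tetO)7CMV-Cre mice. Both groups thus carried the surfactant protein C driven transactivator and the Cre transgene, and only the first carried the floxed alleles of Gpr116, an adhesion G protein-coupled receptor. All mice were 8 weeks old littermates, described as matched for sex and age, and each array was 1 pool of cells from 3 mice, taken up 2 hours after isolation by collagenase and differential plating. Pools were the replicates, so the spread is between pools and not between single animals.

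Array medians lay between 6.77 and 6.81 on the log2 scale. The single probe set for Gpr116, named Adgrf5 in the annotation, read 11.89, 11.78 and 11.87 in the knockout-labelled pools and 11.49, 11.53 and 11.51 in the control pools. It was called higher in the knockout-labelled pools, against the label, by 0.34 ± 0.05 (limma adjusted p = 0.0119). The position of its probes with respect to the floxed exons is unknown, so every direction below rests on the labels. By Xist and 3 Y-linked genes, knockout 2 and control 1 were male pools and the other 4 were female. The type II markers were at the top of the scale in both groups, with a mean over 14 genes of 12.21 to 12.28 in the knockout-labelled pools and 12.13 to 12.15 in the control pools. The study compared the groups to see how loss of Gpr116 alters transcripts of these cells.

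In type 2 immunity, damaged or stimulated barrier epithelium releases alarmins such as IL-33, which act on innate lymphoid cells, mast cells and T helper cells. These cells secrete interleukin 4 and interleukin 13, which signal through receptors that share the chain encoded by Il4ra and through the transcription factor STAT6. Target genes in mouse macrophages and epithelium include the resistin-like protein gene Retnla, the chitinase-like gene Chil3 and the arginase gene Arg1. In the lung, type II cells are a main store of nuclear IL-33.

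The promoter windows of 4 genes that were higher in the knockout-labelled pools are shown because each holds the spaced palindrome that STAT6 is known to bind, TTC and GAA with 4 bases between them, which is in capitals. The windows are RefSeq sequences of build GRCm38.p6, run 5′ to 3′ along the gene's strand and cover 250 bases before to 50 after an annotated start. Retnla and Retnlg lie next to each other among the protein-coding genes of chromosome 16, Fcer2a is on chromosome 8 and Il33 on chromosome 19. The windows are chr16:48842359-48842658 (plus strand), chr16:48872358-48872657 (plus strand), chr8:3690812-3691111 (minus strand) and chr19:29924863-29925162 (plus strand).
Retnla: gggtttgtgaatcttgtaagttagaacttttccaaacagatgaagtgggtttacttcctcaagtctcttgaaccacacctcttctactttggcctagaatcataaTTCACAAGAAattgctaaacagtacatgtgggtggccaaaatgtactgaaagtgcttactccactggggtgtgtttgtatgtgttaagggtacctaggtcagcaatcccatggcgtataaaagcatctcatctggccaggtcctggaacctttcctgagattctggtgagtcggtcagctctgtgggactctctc
Retnlg: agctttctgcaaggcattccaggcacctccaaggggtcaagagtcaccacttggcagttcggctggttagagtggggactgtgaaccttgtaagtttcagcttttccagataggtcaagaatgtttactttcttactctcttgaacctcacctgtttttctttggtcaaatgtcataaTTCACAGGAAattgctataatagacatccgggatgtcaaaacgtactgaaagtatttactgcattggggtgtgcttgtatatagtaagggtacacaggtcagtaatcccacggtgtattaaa
Fcer2a, start 2 of 3: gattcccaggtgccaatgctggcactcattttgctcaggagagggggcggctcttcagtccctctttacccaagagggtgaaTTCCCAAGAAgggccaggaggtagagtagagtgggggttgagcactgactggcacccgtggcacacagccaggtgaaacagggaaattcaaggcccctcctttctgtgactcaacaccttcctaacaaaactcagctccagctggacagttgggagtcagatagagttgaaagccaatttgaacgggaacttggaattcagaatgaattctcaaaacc
Il33, start 1 of 2: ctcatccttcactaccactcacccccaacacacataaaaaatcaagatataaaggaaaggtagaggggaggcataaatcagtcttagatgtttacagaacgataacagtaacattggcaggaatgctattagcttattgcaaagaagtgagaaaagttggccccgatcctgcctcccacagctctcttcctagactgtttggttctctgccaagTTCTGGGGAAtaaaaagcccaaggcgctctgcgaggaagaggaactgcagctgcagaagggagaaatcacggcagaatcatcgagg

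Windows were found for 9 of the 10 genes, 13 in all because Fcer2a, Il33 and Il1rl1 have several starts. Arg1 was not among them. This palindrome was in 4 of the 13 windows and in 6.95% of all 32851 windows of the same length. It sat at bases -145 to -136 from the start in Retnla, -72 to -63 in Retnlg, -168 to -159 from the second start of Fcer2a, and -36 to -27 from the first start of Il33. The other starts of Fcer2a and Il33 and the windows of Il4ra, Il13ra1, Chil1, Chil3 and Il1rl1 did not hold it. Of these, Il4ra and Chil1 were also called higher in the knockout-labelled pools. A gene with several starts had more windows in which a match could fall. The related form with 3 bases between, TTCNNNGAA, was in the Chil3 window alone of the 13 and in 8.30% of all windows. The shorter C/EBP pattern TTNNGNAA, searched on both strands like the others, was in 9 of the 13 and in 40.7% of all windows. In Retnla one such match, at bases -134 to -127, stood beside the palindrome, and no match of one pattern overlapped a match of another in these windows. The Retnla and Retnlg windows were identical at 178 of 225 aligned bases (79.1%). Their palindromes stand between the same letters, tcataa before and attgcta after, so these matches are not independent of each other. A match says only that the letters of the pattern are present.

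**Figure D1:**
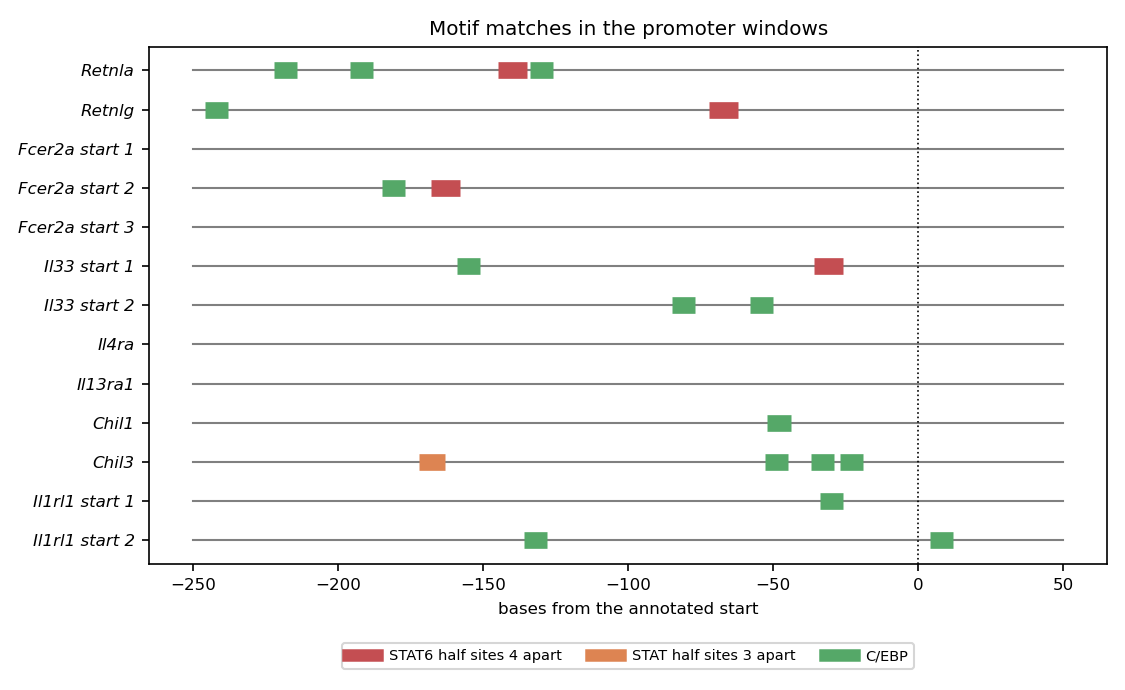
Matches of the 3 patterns in the 13 promoter windows, one row per annotated start. The horizontal axis is the distance in bases from the start (dotted line), red bars mark TTC and GAA with 4 bases between, orange bars TTCNNNGAA and green bars TTNNGNAA. Red bars are present in one window each of Retnla, Retnlg, Fcer2a and Il33.

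Of the 9 genes, 6 were higher in the knockout-labelled pools, 0 were lower and 3 did not pass, at an adjusted p under 0.05 (limma over all genes, Benjamini-Hochberg). Over all 19938 genes, 3.36% were called higher, 5.13% lower and 8.49% in either direction. The 3 values of one group lay wholly above the 3 of the other in 7 of the 9 genes, each time with the knockout-labelled pools above, and this was so for 14.8% of all genes (27.6% with either group above). Retnla ranked 9 among all genes by size of rise. Values are log2, made by RMA, and differences are log2 with the standard error (SE). Apart from the guide that follows, the brightness of different probe sets was not read as a difference in transcript amount between genes. As a guide to faint signal, the 95th percentile of 1027 olfactory receptor genes, taken as silent in lung, was 6.09.

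**Figure D2:**
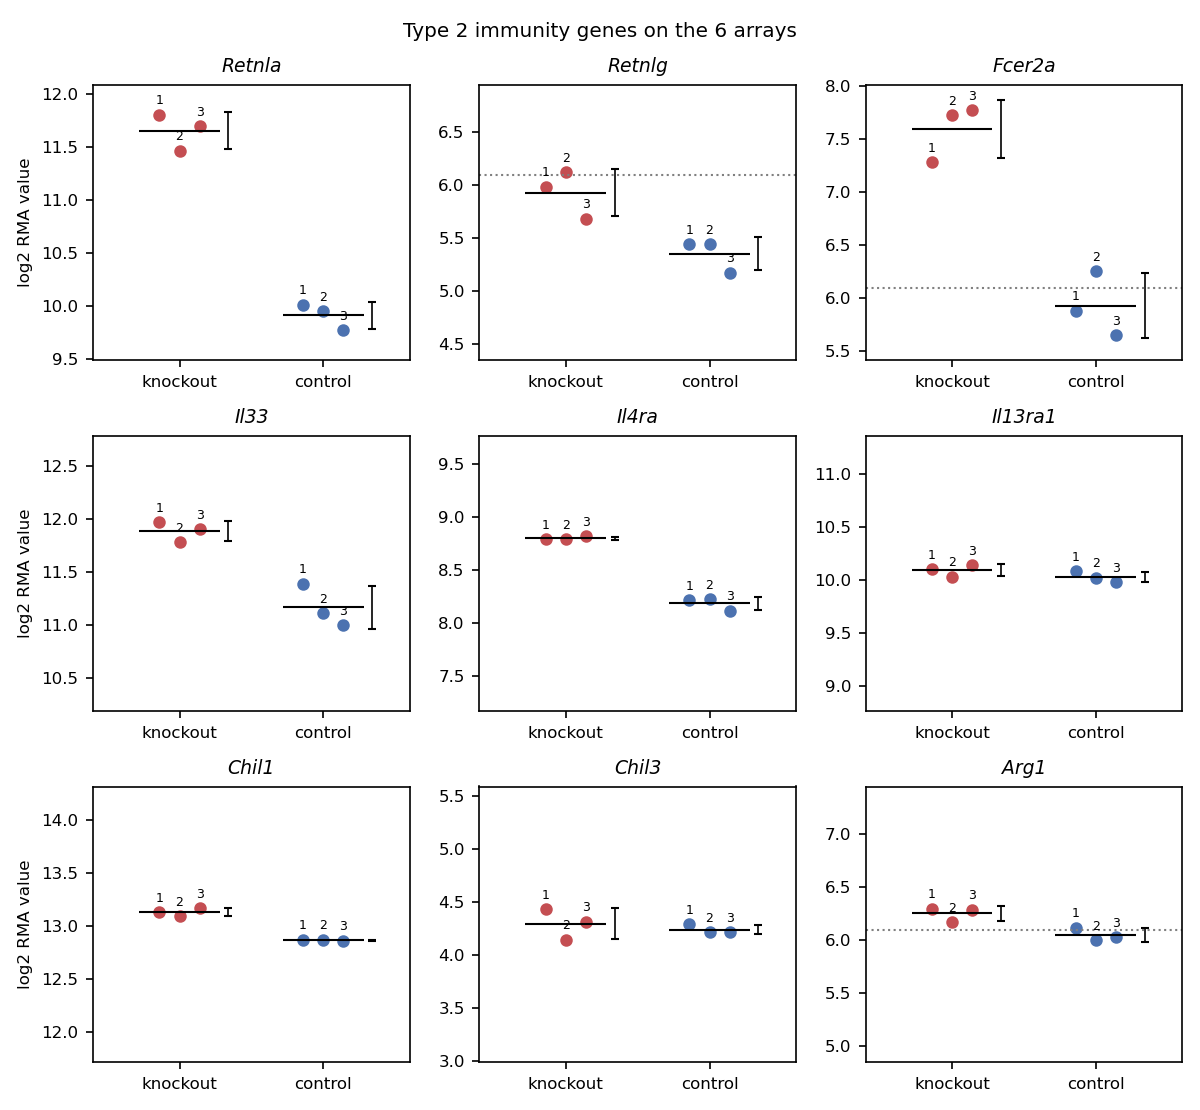
Log2 RMA values of the 9 genes on each array, with numbers giving the replicate, horizontal bars the group mean and error bars the SD (n = 3 each). Every panel spans the same 2.6 log2 units, and the dotted line is the olfactory receptor level of 6.09 where it falls in the panel (Chil3 lies wholly below it). Retnla and Fcer2a show the widest gaps between the knockout-labelled pools on the left and the control pools on the right, and Il13ra1 and Chil3 overlap.

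The alarmin gene Il33 read 11.97, 11.78 and 11.90 in the knockout-labelled pools and 11.39, 11.11 and 11 in the control pools. The groups did not overlap, and control 1, a male pool, was the highest control. Il33 rose by 0.72 ± 0.11 (SE, n = 3 per group; limma adjusted p = 0.0105), or 1.64-fold. Without control 2 or control 3 it was no longer called (adjusted p = 0.0575 and 0.0505). In the 4 female pools alone the difference was 0.88 (adjusted p = 0.0401).

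Among receptors, Il4ra, the shared signalling chain for interleukin 4 and interleukin 13, read 8.79, 8.79 and 8.82 in the knockout-labelled pools and 8.22, 8.23 and 8.12 in the control pools. Both groups were tight and stood 0.56 apart at their nearest values. Il4ra rose by 0.61 ± 0.05 (1.53-fold; limma adjusted p = 0.00389), and it alone of the 9 genes was called under all 14 alternative settings, with differences of 0.58 to 0.63. Il13ra1, the chain that pairs with Il4ra to bind interleukin 13, read 10.10, 10.03 and 10.14 in the knockout-labelled pools and 10.08, 10.02 and 9.98 in the control pools. These values overlapped, and the difference of 0.063 ± 0.056 had a 95% interval from -0.068 to 0.19 (limma adjusted p = 0.586). The Il4ra value minus the Il13ra1 value within each array, a contrast picked after both genes had been seen and so given with no test, was -1.31, -1.24 and -1.32 in the knockout-labelled pools and -1.86, -1.79 and -1.86 in the control pools. The groups stood apart by 0.55 on average.

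Fcer2a, which encodes the low-affinity IgE receptor CD23, read 7.28, 7.72 and 7.77 in the knockout-labelled pools and 5.88, 6.25 and 5.65 in the control pools. The control mean of 5.93 lay below the olfactory receptor level and the mean of the knockout-labelled pools, 7.59, above it. Fcer2a rose by 1.66 ± 0.18 (3.17-fold; limma adjusted p = 0.0049) and kept its call whichever array was left out. Control 1 and control 3 lay below that level, so the size of the rise and its fold are uncertain and may be too small. In the 4 female pools the difference was 1.58 and did not pass (adjusted p = 0.0643). B cells are a well-known site of CD23. Of 13 B cell markers 0 were called, against 8.49% of all genes in either direction, and 3 stood above the olfactory receptor level. The mean of the list was 5.56 to 5.75 in the knockout-labelled pools and 5.56 to 5.66 in the control pools. The B cell genes Ms4a1 (4.2, 4.34 and 4.17 in the knockout-labelled pools, 4.38, 4.13 and 4.31 in the control pools) and Cd79a (4.96 to 5.23 knockout-labelled, 5.01 to 5.45 control) were below the olfactory receptor level on every array. Cd79b, at 8.62 to 8.93 in the knockout-labelled pools and 8.56 to 8.62 in the control pools, was above it. It was not called (0.16 ± 0.08, limma adjusted p = 0.345). The part of B cell RNA in the Fcer2a difference was not tested.

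Retnla, a secreted resistin-like protein also known as FIZZ1 or RELM-alpha, read 11.80, 11.46 and 11.69 in the knockout-labelled pools and 10.01, 9.95 and 9.77 in the control pools. The lowest knockout-labelled pool stood 1.45 above the highest control. Retnla was 3.34-fold higher (1.74 ± 0.10 on log2; limma adjusted p = 0.00187), and its difference lay between 1.67 and 1.84 whichever array was left out, with a call each time. Its neighbour Retnlg, a resistin-like gene best known from mouse neutrophils and bone marrow, read 5.98, 6.12 and 5.68 in the knockout-labelled pools and 5.44, 5.44 and 5.17 in the control pools. Both group means lay below the olfactory receptor level. Retnlg was called higher at 0.58 ± 0.13 (limma adjusted p = 0.0382), but it was called in 1 of 6 fits that left out an array, that without knockout 3, and the adjusted p ran from 0.0625 to 0.137 without knockout 1, knockout 2, control 1, control 2 or control 3. Among the knockout-labelled pools, Retnlg was highest on knockout 2, where Retnla was lowest. The other neighbouring resistin-like gene, Retnlb, read 4.48 to 4.59 in the knockout-labelled pools and 4.43 to 4.54 in the control pools and did not pass (0.050 ± 0.057, limma adjusted p = 0.691), with every value below the olfactory receptor level. Whether Retnlg probes also caught Retnla transcripts was not tested.

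Of the neutrophil markers, 0 of 12 were called, against 8.49% of all genes in either direction, and 2 stood above the olfactory receptor level. The mean of the list was 5.44 to 5.65 in the knockout-labelled pools and 5.32 to 5.40 in the control pools. The neutrophil gene S100a8 was at 4.61 to 4.67 in both groups, below the olfactory receptor level. The iron-binding protein gene Ltf, also made by airway glands, reached 9.25 on knockout 3 alone and lay between 6.64 and 7.12 on the other 5 arrays. The collagenase gene Mmp8 read 4.56, 6.44 and 5.29 in the knockout-labelled pools and 4.36 to 4.43 in the control pools, without a call (1.04 ± 0.42, limma adjusted p = 0.2), though 1 marker, Mmp8, passed without knockout 1 (adjusted p = 0.0267).

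The chitinase-like proteins bind chitin without cleaving it. Chil1, which encodes YKL-40 or BRP-39, read 13.13, 13.09 and 13.17 in the knockout-labelled pools and 12.87, 12.87 and 12.86 in the control pools. These values lay near the array maxima of 13.32 to 13.43, where differences can be compressed. Chil1 rose by 0.26 ± 0.05 (1.20-fold; limma adjusted p = 0.0205). Under the replicate block, which pairs pools of the same number, the adjusted p was 0.0534, and it was 0.0653 without knockout 3, 0.0848 without control 1, 0.0953 without control 2 and 0.0913 without control 3. Chil3, also called Ym1, a product of mouse macrophages, read 4.43, 4.14 and 4.31 in the knockout-labelled pools and 4.29, 4.21 and 4.21 in the control pools, all below the olfactory receptor level. The groups overlapped, and the difference of 0.057 ± 0.080 did not pass (limma adjusted p = 0.761, 95% interval -0.13 to 0.25). Without knockout 1 its sign turned, at -0.012. Of the genes beside Chil3 on chromosome 3, the chitinase gene Chia1 read 12.10, 11.73 and 11.89 in the knockout-labelled pools and 12.32, 12.25 and 12.12 in the control pools, and Chil4 read 3.39 to 3.56 in the knockout-labelled pools and 3.36 to 3.49 in the control pools. Neither passed (limma adjusted p = 0.116 and 0.739), and Chil4 was below the olfactory receptor level on every array.

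Arg1, the cytosolic arginase that competes with nitric oxide synthase for arginine, read 6.30, 6.17 and 6.29 in the knockout-labelled pools and 6.12, 6.0 and 6.03 in the control pools. The groups stood 0.050 apart without overlap, close to the olfactory receptor level. The difference of 0.20 ± 0.06 did not pass (limma adjusted p = 0.101). The mitochondrial arginase gene Arg2 read 10.05, 10.16 and 10.71 in the knockout-labelled pools and 9.24, 9.53 and 9.50 in the control pools, a rise of 0.88 ± 0.17 (limma adjusted p = 0.0263). Arg2 was not called without control 1, control 2 or control 3 (adjusted p = 0.104, 0.0848 and 0.0962).

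**Figure D3:**
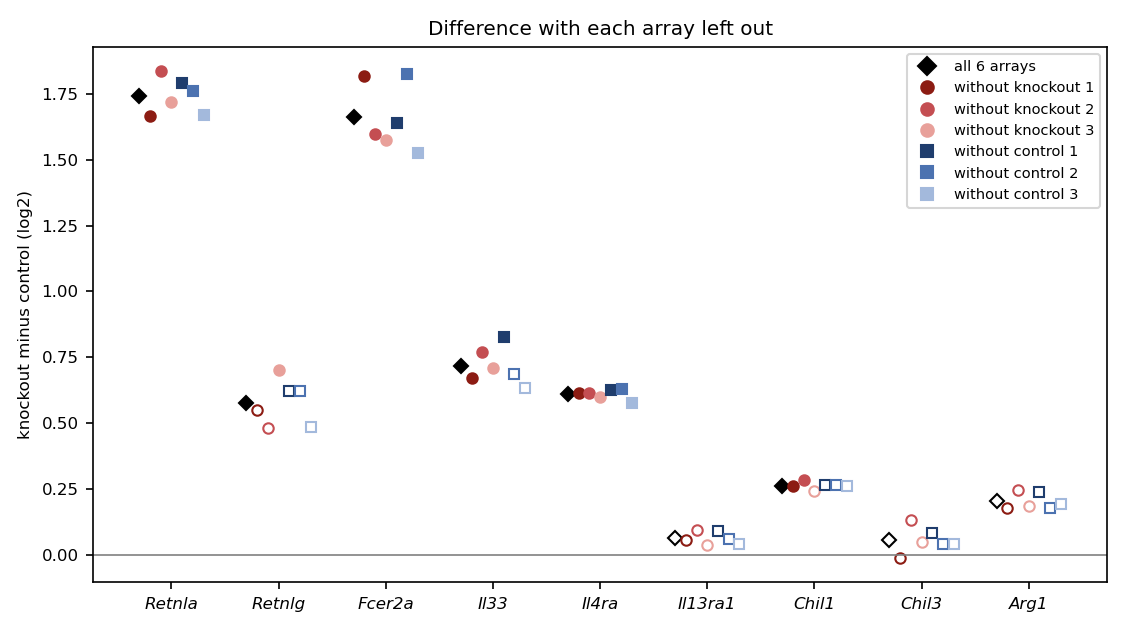
Difference in log2 between the knockout-labelled pools and the control pools for each of the 9 genes, with all 6 arrays (black diamonds) and with each array left out in turn (circles for knockout-labelled pools, squares for control pools). Filled symbols have an adjusted p under 0.05 over all genes, open symbols do not. Retnla, Fcer2a and Il4ra are filled in every fit, and Retnlg in the fits with all arrays and without knockout 3.

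The genes did not share one order of arrays within a group. Knockout 2, a male pool, was the lowest of the knockout-labelled pools in 6 of the 9 genes, Retnla, Il33, Il13ra1, Chil1, Chil3 and Arg1, while Fcer2a was lowest on knockout 1 and Retnlg on knockout 3. In Il4ra, knockout 1 and knockout 2 tied as lowest at 8.79. Control 3 was the lowest control in 7 of the 9. In Chil3 it tied with control 2 at 4.21, and in Arg1 control 2 was lowest. By distance between profiles over the 6 arrays, each profile set to its own control mean, the genes nearest to Retnla were Meg3, an imprinted noncoding RNA (0.49), Fcer2a (0.69) and the fibrinogen-like gene Fgl1 (0.73). Nearest to Fcer2a were Meg3 (0.53), the metalloreductase gene Steap4 (0.63) and the metallothionein gene Mt2 (0.68). Nearest to Il33 were Chac2 (0.16), the cytidine triphosphate synthase gene Ctps (0.17) and Pigr, the epithelial receptor that carries polymeric immunoglobulin (0.21). Nearest to Arg1 were Rabggtb (0.044), Mrps33 (0.048) and the kinase gene Jak2 (0.059). In units of log2, these distances chiefly pick genes with a difference of the same size.

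Of 63 further genes of the type 2 pathway in 4 lists, 58 were measured, 4 were higher, 0 lower and 54 did not pass. That is 6.90% higher, against 3.36% of all genes. The median difference was 0.047 over the 58 genes and 0.0033 over all genes. Among cytokines 1 of 7 was called, Csf2, the growth factor GM-CSF, which read 7.98, 7.98 and 8.02 in the knockout-labelled pools and 7.38, 7.46 and 7.36 in the control pools (0.59 ± 0.05, limma adjusted p = 0.00389). The other 6 cytokine genes of the list, which does not hold Il33, did not pass. Il4 read 5.64 to 5.87 in the knockout-labelled pools and 5.68 to 5.82 in the control pools, and Il13 read 6.54 to 6.57 in the knockout-labelled pools and 6.52 to 6.58 in the control pools (limma adjusted p = 0.937 and 0.964). Il5 (-0.18 ± 0.10), the epithelial alarmin gene Tslp (-0.11 ± 0.09) and Il25 (-0.080 ± 0.073), another epithelial cytokine, had adjusted p values of 0.369 to 0.602. Il4, Il5 and Tslp were below the olfactory receptor level on every array, so these values do not show whether they changed. Il25 (6.07 to 6.26 knockout-labelled, 6.20 to 6.36 control) lay around that level and Il13 not far above it. The values of Il25 and Il13 are therefore limited too in what they show.

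Among 12 further receptor genes 0 were called, against 8.49% of all genes in either direction. The nearest to the threshold was Csf2rb, the beta chain shared by receptors for GM-CSF, interleukin 3 and interleukin 5, at 0.31 ± 0.09 (limma adjusted p = 0.0781). Il7r (0.24 ± 0.09) and Crlf2 (0.12 ± 0.06), the chains of the TSLP receptor, did not pass (adjusted p = 0.172 and 0.285), and Il7r was below the olfactory receptor level on every array. Il1rap, the accessory chain with which the IL-33 receptor signals, read 7.86, 8.17 and 7.85 in the knockout-labelled pools and 8.12, 8.27 and 8.09 in the control pools (-0.20 ± 0.10, limma adjusted p = 0.311). Without knockout 2 its adjusted p was 0.049, as 1 lower receptor gene.

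Among 19 signalling genes 0 were called, against 8.49% of all genes in either direction. Stat6 itself read 9.77, 9.78 and 9.77 in the knockout-labelled pools and 9.77, 9.78 and 9.87 in the control pools (-0.033 ± 0.051, limma adjusted p = 0.781). Jak2 (0.20 ± 0.06), the adaptor gene Myd88 (0.18 ± 0.05), and the cytokine signalling inhibitor genes Socs3 (0.28 ± 0.11) and Cish (0.23 ± 0.09) had limma adjusted p values of 0.0848, 0.1, 0.181 and 0.182. Without knockout 2, Jak2 passed (adjusted p = 0.0445), and without knockout 3, Socs3 did (adjusted p = 0.0264).

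Among 20 target and effector genes, 3 were higher and 0 lower, against 3.36% and 5.13% of all genes. Slc26a4, the anion exchanger pendrin and a known airway target of interleukin 13, read 8.17, 8.46 and 8.42 in the knockout-labelled pools and 6.18, 6.02 and 5.86 in the control pools (2.33 ± 0.11, limma adjusted p = 0.000639). Control 2 and control 3 were below the olfactory receptor level, so the size of this rise is uncertain. Arg2, given above, and the matrix protein gene Postn (0.89 ± 0.20, limma adjusted p = 0.0393) were the other 2. Postn lost its call under the replicate block, at an adjusted p of 0.0523. It was also lost when knockout 1, knockout 3, control 2 or control 3 was left out (0.0624, 0.129, 0.138 and 0.0958), and the list had 1 gene higher without control 2 or control 3, and 1 gene lower without knockout 1. Clca1, an airway gene induced by interleukin 13, read 7.19, 7.43 and 9.09 in the knockout-labelled pools and 6.07, 6.31 and 5.86 in the control pools. Its groups did not overlap and knockout 3 was the highest of all arrays, with control 1 and control 3 below the olfactory receptor level. It did not pass (1.82 ± 0.46, limma adjusted p = 0.0599), and it did pass without knockout 3 (0.0166) or knockout 1 (0.0268). Several other classical targets did not pass either. The goblet cell mucin gene Muc5ac read 6.19 to 6.62 in the knockout-labelled pools and 6.35 to 6.40 in the control pools. The eotaxin gene Ccl11 read 7.29 to 7.66 in the knockout-labelled pools and 7.45 to 7.68 in the control pools. Of the macrophage receptor genes, Mrc1 read 5.23 to 5.45 in the knockout-labelled pools and 5.16 to 5.29 in the control pools, and Mgl2 5.02 to 5.14 knockout-labelled and 5.01 to 5.22 control. The limma adjusted p values of these 4 genes were 0.404 to 0.985. Mrc1 and Mgl2 were below the olfactory receptor level on every array.

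**Figure D4:**
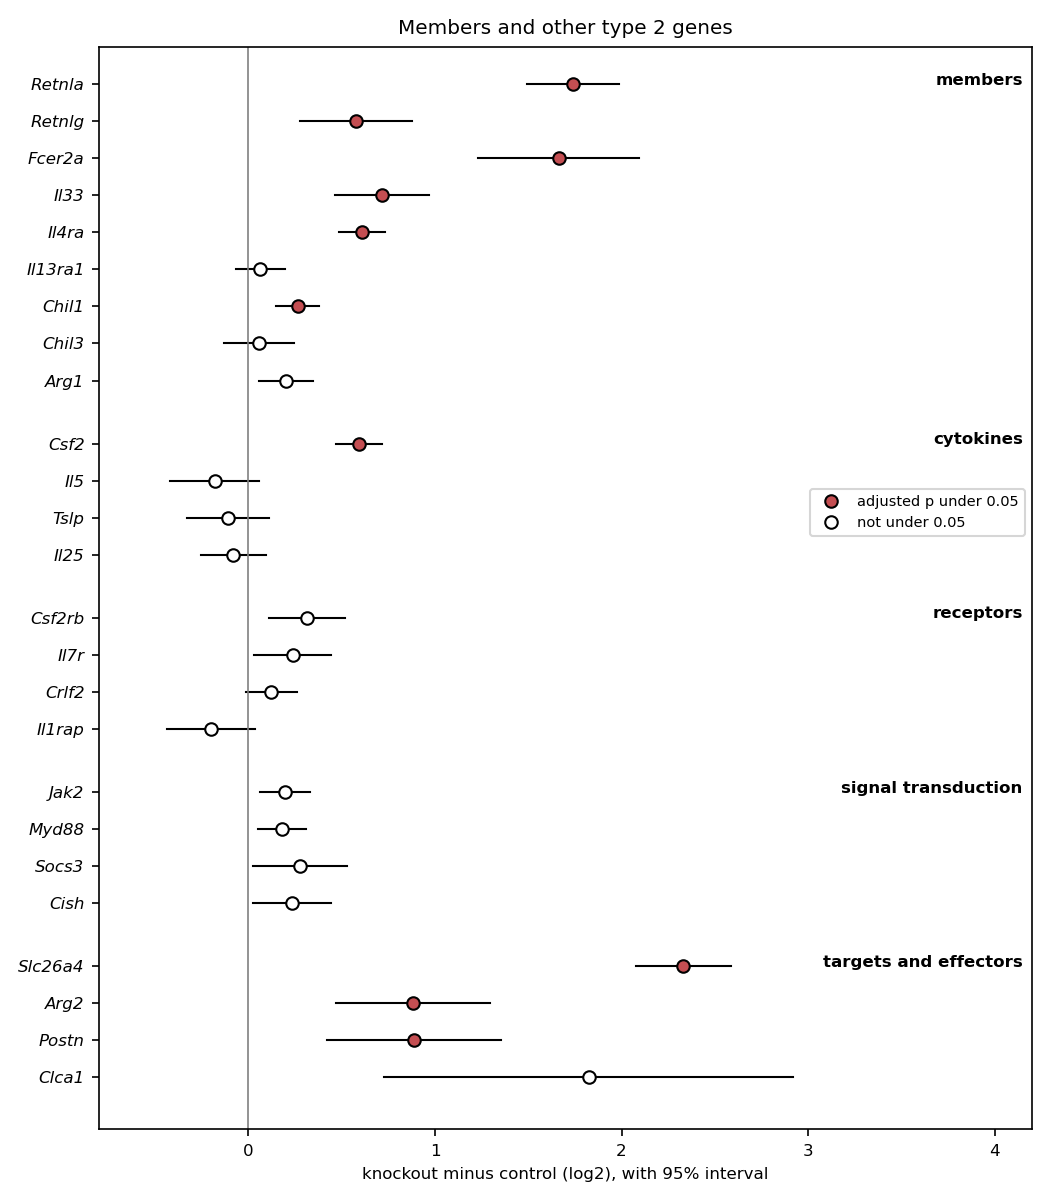
Differences in log2 between the knockout-labelled pools and the control pools for the 9 genes and for the 4 genes of smallest p in each pathway list. Bars are 95% intervals from limma, filled points have an adjusted p under 0.05 over all genes and open points do not. Slc26a4 (2.33), Clca1 (1.82), Retnla (1.74) and Fcer2a (1.66) lie to the right of the other genes, and Clca1 is open. The control means of Slc26a4, Clca1 and Fcer2a were below the olfactory receptor level, so no order is read among the 4.

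Markers of ciliated and club cells were mostly lower in the knockout-labelled pools. In bulk RNA, fewer cells of a type and less RNA per cell cannot be told apart. The 12 ciliated cell markers were all called lower (mean of the list 8.27 to 8.82 in the knockout-labelled pools and 9.50 to 9.60 in the control pools), and 5 were without control 3. Of 10 club cell markers, 0 were higher and 7 lower (10.46 to 10.67 knockout-labelled, 11.02 to 11.09 control). The club cell counts were 4 without knockout 2, 3 without knockout 3 and 1 without control 1, control 2 or control 3. The club cell marker Scgb3a1 was not called. It read 10.13, 10.15 and 12.02 in the knockout-labelled pools and 10.65, 10.90 and 10.50 in the control pools. Like Clca1 and Ltf, it was highest on knockout 3. All of these airway markers stood above the olfactory receptor level, among them Scgb3a2 (8.64, 8.32 and 8.65 in the knockout-labelled pools and 9.53, 9.50 and 9.45 in the control pools) and Foxj1 (8.47 to 8.90 knockout-labelled, 9.34 to 9.59 control). Their part in the differences of Retnla, Fcer2a, Il33, Il4ra and Chil1 was not tested.

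Of 14 alveolar macrophage markers, 0 were higher and 2 lower, against 3.36% and 5.13% of all genes, and 7 stood above the olfactory receptor level. The lower genes were Plet1 (-0.60 ± 0.11) and Pparg (-0.55 ± 0.11). Plet1 read 10.03 to 10.50 in the knockout-labelled pools and 10.81 to 10.86 in the control pools. Pparg read 7.32 to 7.64 knockout-labelled and 7.82 to 8.15 control. Which cells gave the Plet1 and Pparg signal was not tested. The mean of the list was 6.04 to 6.20 in the knockout-labelled pools and 6.16 to 6.27 in the control pools. Marco (5.75 to 5.96 knockout-labelled, 5.92 to 6.04 control) and Itgax (5.67 to 5.75 knockout-labelled, 5.58 to 5.71 control), both on the list, lay below that level on every array, as did the macrophage product Chil3. Cd68, also on the list, lay above it on every array (7.07 to 7.22 knockout-labelled, 7.14 to 7.49 control) and was not called. The count of lower markers was 1 without knockout 2 and 0 without knockout 3, control 1, control 2 or control 3. Of 15 T cell and innate lymphoid cell markers 0 were called, with a list mean of 5.99 on knockout 1 and 5.35 to 5.47 on the other 5 arrays. The T cell genes Cd8a and Cd3g read 7.75 and 6.80 on knockout 1, against at most 6.18 and 5.24 on any other array. Without knockout 1 the Cd8a and Cd3g differences turned to -0.038 and -0.067. The part of T cell RNA in the results for the members was not tested. Of 14 mast cell, basophil and eosinophil markers 1 was higher and 0 lower. It was Hdc, the histidine decarboxylase that makes histamine (0.79 ± 0.09, limma adjusted p = 0.00541). Hdc read 10.97, 10.97 and 10.76 in the knockout-labelled pools and 10.27, 10.01 and 10.05 in the control pools. Of the 14 markers, 2 stood above the olfactory receptor level, and the median difference of the list was -0.033. Prg2 (-0.18 ± 0.06), Ccr3 (-0.10 ± 0.07) and Epx (-0.10 ± 0.07) did not pass and were below that level on every array. Which cells gave the Hdc signal was not tested.

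In the remaining lists, 0 of 13 fibroblast, mesothelial and adipocyte markers were called. Of 10 endothelial markers 1 was higher, Pecam1 (0.45 ± 0.07, with both group means below the olfactory receptor level), and 1 lower, Kdr (-1.18 ± 0.20). Pecam1 was not called without control 2 or control 3, nor Kdr without any one of the 3 control pools (adjusted p = 0.0649 to 0.0706), and 2 endothelial markers were higher without knockout 1. Of 14 type II markers 2 were higher and 0 lower, and of 10 type I markers 1 was higher and 0 lower. These 3 calls, Lamp3, Lpcat1 and Ager, were lost with the replicate block (adjusted p = 0.0522, 0.0765 and 0.0824) and without knockout 3, control 1, control 2 or control 3. Without knockout 1, Lpcat1 and Ager were not called (adjusted p = 0.0777 and 0.0606), and 3 type I markers were higher.

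**Figure D5:**
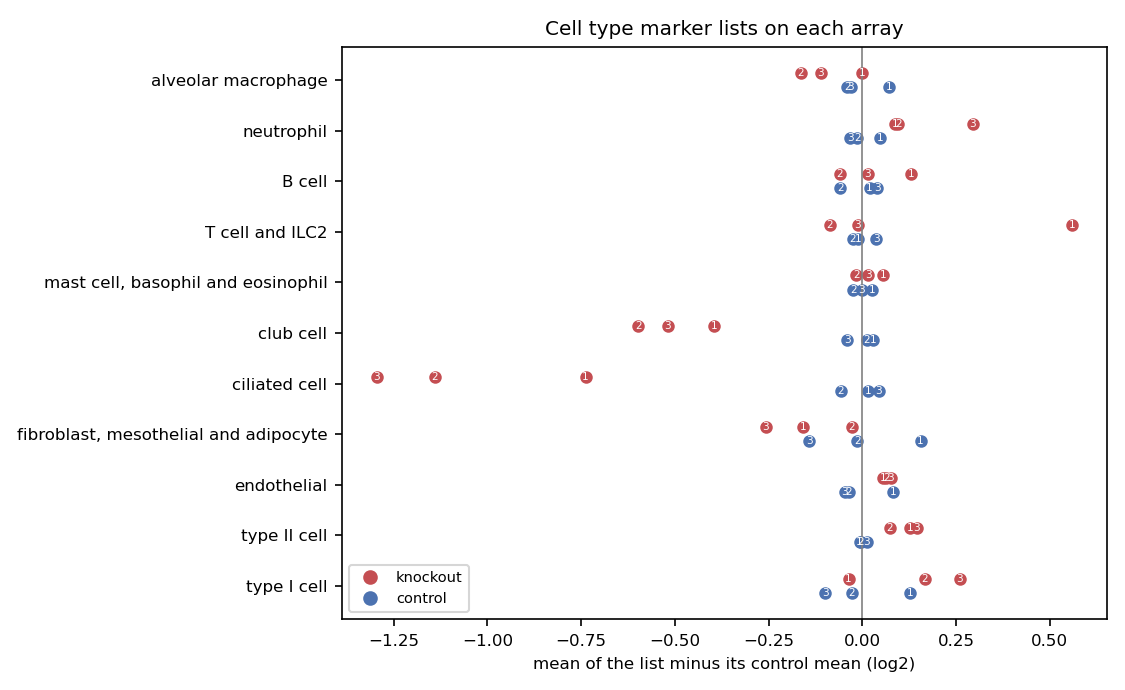
Mean of each marker list on every array, in log2 relative to the mean of the 3 control pools, with the replicate number inside each point. Knockout-labelled pools are drawn in red above the control pools in blue. Ciliated and club cell lists are lower on all 3 knockout-labelled pools, and the T cell and innate lymphoid cell list stands out on knockout 1.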

How the data were processed

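The deposited table holds log2 expression values for 35556 probe sets on 6 arrays, which the authors computed by RMA. The software was Expression Console 1.1 of Affymetrix, per the submitters' processing notes. This method subtracts background, gives all arrays the same distribution and summarises the probes of a set, so a shift shared by most genes would not be visible. Genome build and detection calls are not given in the sources used here.

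Gene symbols were taken from the platform annotation (21789 with 1 symbol, 1621 with several, 12146 with none). The brightest probe set by mean over the 6 arrays stood for each of 19938 genes. Groups and replicate numbers came from the titles. Other numbers in the titles differ between the groups and are not explained. If they mark a batch, it cannot be told apart from the genotype. Differences were tested in R 4.3.3 by limma 3.58.1 (moderated by eBayes after lmFit, two-sided, Benjamini-Hochberg over all genes, threshold 0.05). The fit was tried on simulated normal values with equal spread in both groups. In the real data the median SD of a gene was 0.091 in the knockout-labelled pools and 0.062 in the control pools. That trial therefore does not show how the fit behaves on these data. No filter or block was used. The number of arrays limits the precision.

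The members, lists and tests were chosen with earlier results of these data known. Genes named from a list were taken from the 4 with the smallest p. Il4, Il13, Stat6, Muc5ac, Ccl11, Mgl2, Chia1, Chil4, Retnlb, Ms4a1, Cd79a, S100a8, Scgb3a1, Foxj1, Marco and Itgax, and the contrast of Il4ra with Il13ra1, were chosen after their values were seen. Deviations of same-numbered arrays correlated at 0.192, 0.103 and 0.111 over all genes, above the limit of 0.1 for treating the numbers as pairs. The labels do not say what the numbers mark. The main fit was still run without pairs, and the replicate block is given beside it. These pairs mix sexes: knockout 1, a female pool, goes with control 1, a male pool, and knockout 2, male, with control 2, female. The alternatives were the replicate block, an intensity trend with robust moderation, array weights, a filter at the olfactory receptor level, probe set means, a second quantile normalization, each array left out, the 4 female pools and least squares without moderation.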

Additional observations from a re-analysis of the deposited data

How the results depend on the processing

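With all arrays, 6 of 9 genes were called higher. The count was 3 to 5 with an array left out, 3 in the 4 female pools and 1 (Il4ra) by least squares without moderation, where 21 genes were higher and 20 lower among all genes. In all, 670 genes were higher and 1022 lower. These counts were 144 to 835 and 301 to 1265 with an array left out, and 114 and 84 in the female pools, fits with fewer samples. Pathway genes called were 4 higher and 0 lower, or 2 to 6 higher and 0 to 1 lower with an array left out. With the replicate block 5 of the 9 genes were higher, without Chil1, and no other of the 9 changed its call. All 9 genes kept their sign under each alternative run, except Chil3, which ran from -0.012 without knockout 1 to 0.13 without knockout 2 among the fits that left out an array. Without knockout 1 Cd8a and Cd3g also turned, with ranges of -0.038 to 0.80 and -0.067 to 0.82. The filter at the olfactory receptor level removed Retnlg and Chil3, so it gave no value for them, and each of the 9 genes has 1 probe set, so the probe set mean left their differences as they were. Signal near or below that level limits what the values of Retnlg, Chil3 and Arg1 show, and the size of the rises of Fcer2a and Slc26a4, whose control means were below it. The cause of these changes was not tested, in the fits with fewer samples as in the others.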
